A study of Brachypodium distachyon and Sorghum bicolor and Panicum virgatum with 44 samples.

Results

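The sites described here were the predicted cleavage sites of the microRNA miR166 in 3 grasses, Brachypodium, sorghum and switchgrass. A site was 1 cleavage position in 1 transcript, and it was included where the miRNA paired with it was named miR165 or miR166, whether or not a read was found there. No miRNA named miR165 was listed, so every site was a miR166 site. There were 1124 such sites among 36467 predicted sites of all miRNAs: 926 of 25863 in Brachypodium, 97 of 7435 in sorghum and 101 of 3169 in switchgrass. The study mapped cut ends of RNA in 34 PARE libraries (parallel analysis of RNA ends, which sequences the uncapped 5′ ends that a cleaved transcript leaves), of which 14 came from Brachypodium and 10 from each of the other species, and measured transcript levels in 10 RNA-seq libraries of Brachypodium. The PARE data were deposited as 1 line per miRNA and site with 1 abundance and 1 library named, so they carry no replicate error, and no difference between PARE treatments or tissues could be tested.

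The Brachypodium plants were of the inbred line Bd21, those of the stress experiment were treated at 21 days, and all RNA-seq libraries were made from the parts above ground. There were 2 RNA-seq libraries each of untreated control plants and of plants kept for 12 h under drought (plants taken out of the soil), cold (4 °C), submergence or heat (40 °C). PARE libraries covered the same 5 treatments with 2 libraries each, and root, leaf, stem and panicle with 1 each. The sorghum (BTx623) PARE libraries came from root, leaf, panicle, plants at 4 °C for 24 h and their controls, and the switchgrass (AP13) libraries from stem, leaf, panicle, plants at 4 °C for 24 h and their controls, each with 2 libraries.

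As background, plant miRNAs are cut from a hairpin whose 3p and 5p arms each give a small RNA, and the arm loaded into an ARGONAUTE protein guides it to cut the paired transcript opposite the middle of the miRNA. For miR166 the guide is the 3p arm, and its best known targets are the class III homeodomain leucine zipper (HD-ZIP III) transcription factors. In Arabidopsis and maize these factors specify the upper side of the leaf and pattern the shoot meristem and the vascular tissue, and miR166 confines their transcripts to those domains.

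The mature sequences are shown because the position of the cut follows from where each form starts. The capitals mark the seed, bases 2 to 8. In Brachypodium the guide-arm forms fell into 4 seeds:
miR166a-3p, also listed for b, c, d and i: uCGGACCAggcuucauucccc
miR166h-3p: uCGGACCAggcuucaaucccu
miR166j: uCGGACCAggcuucauuccuu
miR166e-3p: cUCGGACCaggcuucauuccc
miR166f: uCUCGGACcaggcuucauucc
miR166g-3p: uGUGGUGAucucggaccaggc
The forms a-3p, h-3p and j shared a start and a seed and differed in their 3′ part. miR166e-3p started 1 base further 5′, miR166f 2 bases and miR166g-3p 10 bases, so that their predicted cuts lay 1, 2 and 10 nt further along the transcript. In all 387 Brachypodium, 163 sorghum and 140 switchgrass guide-arm lines the listed cleavage position lay opposite base 10 of the miRNA.

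Sorghum listed 4 guide-arm sequences, all with the first of these seeds, and switchgrass 3 with that seed and 1 with the seed of miR166f. These 3 show the range in those species:
sbi-miR166k: uCGGACCAggcuucauuccu
lus-miR166b, used in switchgrass: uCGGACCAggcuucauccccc
atr-miR166b, used in switchgrass: uCUCGGACcaggcuucauucc
The sequence of miR166h-3p was listed under miR166e and miR166g in sorghum and, in switchgrass, under ata-miR5168-3p, whose name put its 39 lines outside the sites counted here. Names without an arm (miR166f, miR166j, all sorghum names and 2 switchgrass names) were assigned to the arm of the named form with which they shared the longest run of bases. The 8 Brachypodium 5p forms had 5 seeds, of which these are examples:
miR166d-5p: gGAAUGUUgucugguuggaga
miR166g-5p: uCUGGUUCaaggucuccacau

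Of the 926 Brachypodium miR166 sites, 426 (46.0%, 95% Wilson interval 42.8 to 49.2%) had at least 1 PARE read, against 37.8% of all predicted Brachypodium sites. For sorghum it was 39 of 97 sites (40.2%, 31.0 to 50.2%), against 24.9% of all sites, and in switchgrass 50 of 101 (49.5%, 40.0 to 59.1%), against 46.5%. The intervals cover counting error only, and sites on 1 transcript or sharing reads are not independent. The median abundance of the miR166 sites with a read was 1 TP10M (a read count scaled to the same total, transcripts per 10M) in each species, the lowest value above 0. At least 2 TP10M were held by 73 Brachypodium, 9 sorghum and 11 switchgrass sites. Over all miRNAs it was 1661 of 25863, 300 of 7435 and 268 of 3169 sites. The sorghum and switchgrass tables covered homologs of Brachypodium targets, so the species' shares rest on differently chosen transcripts and were not compared.

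The tables grade each site by a prominence Level. Level 0 had no read, and a site with reads stood at Level 1 plus 1 for each criterion met: an abundance of at least 10 TP10M, rank 1 or 2 in its transcript, and at least 20% of the transcript's PARE abundance. There were 19 miR166 sites at Level 3 or 4 in Brachypodium (2.05%, against 0.762% of all sites), 4 in sorghum (4.12%, against 0.968%) and 7 in switchgrass (6.93%, against 3.79%). Level 4 was reached by 5, 2 and 4 of them.

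A site was called a close match where a guide-arm form scored 3 or lower in either prediction program (the psRNATarget expectation or the TargetFinder score, both 0 for a perfect match and rising with mismatches). There were 22 close-match sites in 14 Brachypodium transcripts, 6 in sorghum and 11 in switchgrass. At Level 3 or 4 stood 10 of the 22 in Brachypodium, against 3.01% of all sites that scored 3 or lower, 3 of the 6 in sorghum, against 4.75%, and 7 of the 11 in switchgrass, against 35.4%. Reads were found at 19 of 22, 6 of 6 and 10 of 11 close-match sites. Over all miRNAs the share with a read was taken at scores up to 1, above 1 to 2 and above 2 to 3. It was 28.8, 21.5 and 27.2% in Brachypodium, 41.3, 22.2 and 20.3% in sorghum and 94.0, 94.5 and 73.0% in switchgrass. In switchgrass a read at such a score was thus the common outcome. In Brachypodium the best-scored sites were not the most abundant. The 6 Brachypodium miR166 sites of either arm that scored 2 or lower held at most 1 TP10M each. They lay on Bradi1g74127.1, Bradi1g47666.1 and Bradi3g15175.2 alone. The highest RNA level of these genes in any RNA-seq library was 0.35, 4.09 and 0.12 TPM (a transcript share described below). Also counted over both arms, the 29 sites scored above 2 and up to 3 reached 737 TP10M. The 205 scored above 3 and up to 4 reached 18 TP10M, at a 5p site.

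**Figure D1:**
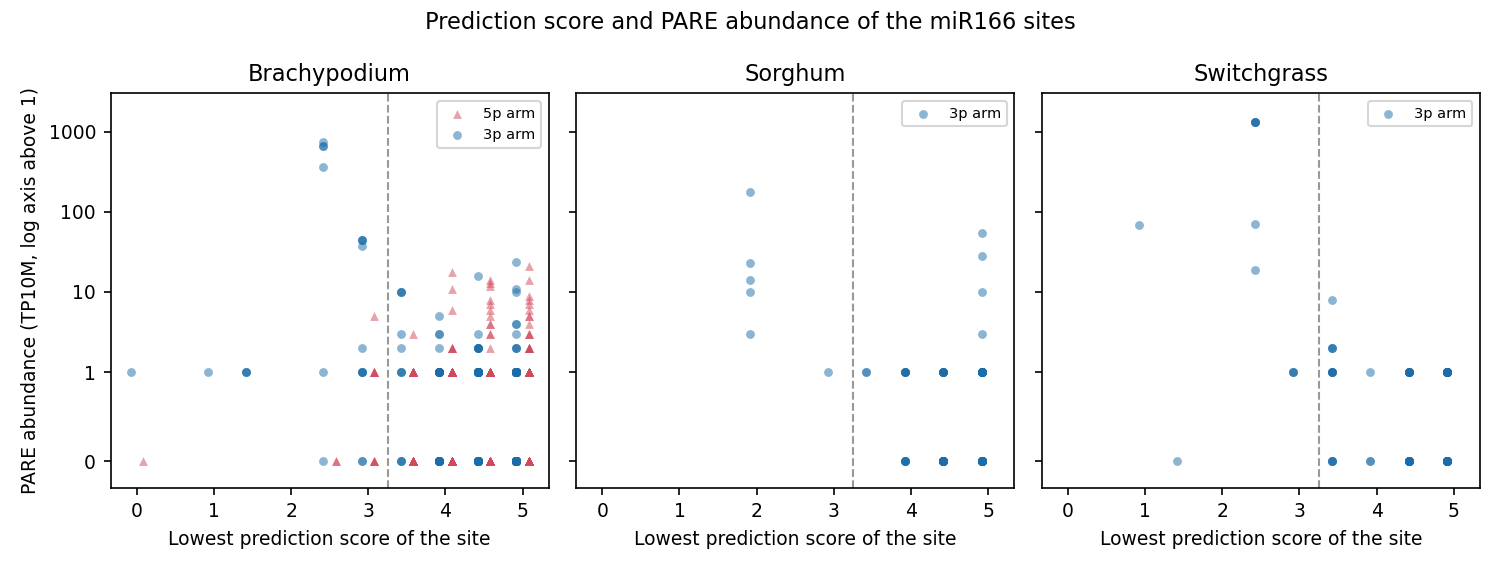
PARE abundance of every miR166 site (TP10M, vertical log axis above 1, with 0 for sites with no read) against its lowest prediction score (horizontal) in the 3 species, with 3p sites as circles and 5p sites as triangles drawn slightly apart. Left of the dashed line are the scores of 3 or lower. The sites above 100 TP10M have scores of 2 to 2.5, and the Brachypodium sites with scores of 2 or lower lie at 1 or 0.

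The abundant sites shared a pattern of scores that was found after their values were seen and is given as a description. The sequence of miR166h-3p scored 2.5 in TargetFinder at 4 Brachypodium, 5 sorghum and 6 switchgrass close-match sites whose lowest score over all forms was 2 or 2.5, and wherever psRNATarget also listed the pair its expectation was 4. At these 15 sites the abundance ran from 365 to 737 TP10M in Brachypodium, from 3 to 175 in sorghum and from 19 to 1321 in switchgrass. The remaining close-match sites held 0 to 45 TP10M in Brachypodium, 1 in sorghum and 0 to 69 in switchgrass. The switchgrass site of 69 TP10M, Pavir.1NG346400.1, also scored 2.5 in TargetFinder for that sequence. It stood outside the pattern only because another form scored 1 there. The study's annotation gives a homeobox domain, the DNA-binding domain of the HD-ZIP factors, for the transcript of Bradi1g13910. Among its examples of conserved targets the study also shows an HD-ZIP III transcription factor cut at a miR166 site. The caption of that figure does not name the transcripts. No annotation of the other 14 transcripts was used here, so they are named by identifier only.

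Among the 4 Brachypodium sites, Bradi3g28970.1 held 737 TP10M at position 1163, rank 1 and 25.3% of the transcript's PARE abundance, in the library control replicate 2, which made it Level 4. This was the 9th most abundant of all 25863 predicted sites. Bradi1g13910.1, the homeobox transcript, held 671 TP10M at position 912 in cold replicate 1, also at rank 1. Its share of 18.9% lay just under the 20% criterion and left it at Level 3. Bradi4g01887.1 held 671 TP10M at position 825 in the same library, with a share of 22.1% and Level 4. Bradi2g06210.1 had the lowest abundance of the 4, 365 TP10M at position 4192 in control replicate 2, and the highest share, 75.6%, at Level 4. All 4 positions were the most abundant PARE position of their transcript. The equal abundance and library of Bradi1g13910.1 and Bradi4g01887.1 leave unknown whether the reads were counted for both transcripts. The same 3 forms, a-3p, h-3p and j, were predicted at each of the 4 positions.

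The neighbouring positions, predicted for the forms that start further 5′, held far less. At +1 nt, the position predicted for miR166e-3p, Bradi1g13910.1, Bradi2g06210.1 and Bradi4g01887.1 each held 45 TP10M and Bradi3g28970.1 held 37 TP10M, all 4 in submergence replicate 2. At +2 nt, predicted for miR166f, the first 3 held 10 TP10M each and Bradi3g28970.1 held 3 TP10M, all in a library whose name matched no sample of the series. The study lists the names of the unmatched libraries as earlier ones of root, leaf, stem and panicle. The abundance fell from 0 to +1 to +2 nt in all 4 transcripts, but the 3 positions were listed from different libraries. Whether the equal values of 45 and of 10 TP10M in the same 3 transcripts are the same reads is also unknown, and with sites of equal abundance and library counted as 1 the Brachypodium close-match sites at Level 3 or 4 numbered 8 in place of 10. The shares of the transcript were 1.53 to 6.38% at +1 nt and 0.873 to 2.00% at +2 nt. Because +1 nt was rank 2 in Bradi2g06210.1 and Bradi4g01887.1, these 2 sites still reached Level 3, while those of the other transcripts stood at Level 2.

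**Figure D2:**
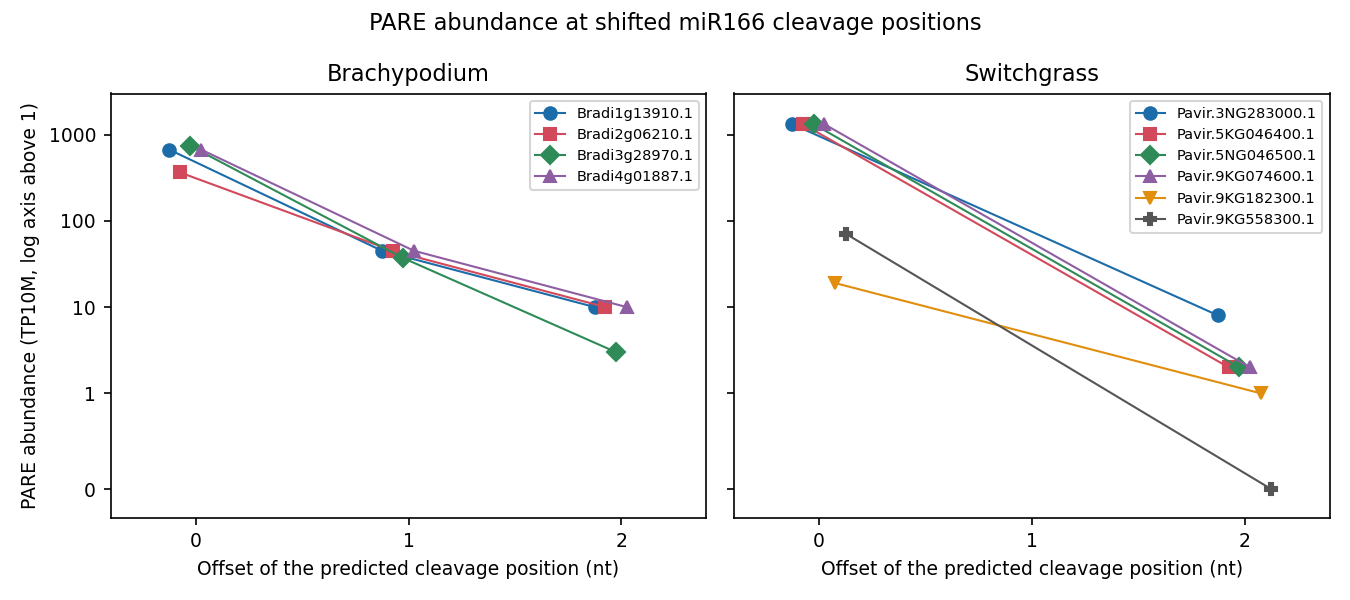
PARE abundance (TP10M, vertical log axis above 1) at the predicted cleavage position of the miR166 forms that share the most common start (offset 0) and at the positions predicted for forms starting 1 or 2 bases further 5′ (horizontal, nt), with 1 line per transcript. In Brachypodium all 4 transcripts fall from 365 to 737 TP10M at offset 0 to 37 to 45 at offset 1 and 3 to 10 at offset 2. In switchgrass no form was listed for offset 1, and the 6 transcripts fall from 19 to 1321 TP10M to 0 to 8 at offset 2.

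The other Brachypodium close-match sites had almost no reads. Bradi1g74127.1 matched miR166a-3p perfectly, with a score of 0 in both programs at position 656, and held 1 TP10M there (heat replicate 2), 1 TP10M at position 657 (drought replicate 1) and 1 TP10M at position 658 (heat replicate 1). The sites at 656 and 657 stood at Level 3 only through their rank and share, 33.3% and 100% of a transcript with almost no other reads. The same transcript also matched the 5p arm: miR166d-5p scored 0 in TargetFinder at position 739, where no read was found. It was the only transcript with a close match to both arms, and 7 of the 839 Brachypodium transcripts with a miR166 site had sites of both arms at any score. Bradi3g15175.2 (score 1.5, position 1256, control replicate 2) and Bradi1g47666.1 (score 1.5, position 1328, cold replicate 2) each held 1 TP10M, at rank 1 and with shares of 100% and 33.3%, and were also graded Level 3. Of the 10 close-match sites at Level 3 or 4, these 4 rested on 1 TP10M.

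Bradi1g54147.2 held 2 TP10M at position 2044 and 0.205% of its transcript. Bradi1g01640.2, annotated in the study with a NAM domain (the DNA-binding domain of NAC transcription factors), held 1 TP10M at position 1243. Bradi2g02846.1, Bradi3g51590.1, Bradi5g18830.1 and position 1329 of Bradi1g47666.1 held 1 TP10M each. No read was listed for Bradi1g50832.2 at position 1834, the only close match of miR166g-3p, for Bradi3g59320.2 at position 708 or for Bradi3g15175.2 at position 1257.

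In sorghum the 5 transcripts of the shared score pattern spanned a wide range. Sobic.001G157400.1 held 175 TP10M at position 877, rank 1, 18.6% of the transcript and Level 3. Sobic.001G537300.2 held 23 TP10M at position 692, also rank 1 and Level 3, with 5.81% of the transcript. Sobic.003G028300.1 held fewer reads, 14 TP10M at position 1334, but 51.9% of its transcript, and was the only sorghum close match at Level 4. Sobic.008G168100.1 (10 TP10M, position 880, Level 2) and Sobic.001G217200.3 (3 TP10M, position 1140, Level 1) were not among the first 2 ranks. All 4 sorghum sequences were predicted at each of these positions, and the scores were the same at all 5, 2 at the lowest. The site outside the pattern, Sobic.004G283500.1, held 1 TP10M at position 365. Root replicate 2 was the library named for 4 of the 6 close-match sites, against 12.6% of all sorghum sites with a read. With the sites named for it left out, the number at Level 3 or 4 was 1 in place of 3. Levels without its reads could not be recomputed, since 1 library was named per site.

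In switchgrass, a polyploid, 4 transcripts held 1321 TP10M each in stem replicate 1: Pavir.3NG283000.1 at position 736, Pavir.5KG046400.1 at 1029, Pavir.5NG046500.1 at 1689 and Pavir.9KG074600.1 at 977. Equal abundance in the same library leaves unknown whether these are the same reads listed for 4 transcripts. Their shares differed, 68.6%, 92.0%, 91.5% and 54.2%, and all 4 were rank 1 and Level 4. Only 6 of the 3169 switchgrass sites of all miRNAs held more. Pavir.9KG558300.1 held 71 TP10M (position 1036, 14.9% of the transcript) and Pavir.9KG182300.1 held 19 TP10M (position 794, 7.17%), both at rank 1, Level 3 and in stem replicate 1. Pavir.1NG346400.1 had the lowest score of the switchgrass sites, 1 for lus-miR166b in TargetFinder, and held 69 TP10M at position 2084 in stem replicate 2, 16.1% of its transcript and Level 3. Pavir.1NG302800.1, Pavir.3KG302500.1 and Pavir.9KG497300.1 held 1 TP10M each, and Pavir.J790000.1, with a score of 1.5, had no read.

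Stem replicate 1 was named for 8 of the 10 switchgrass close-match sites with a read and for 18 of the 50 miR166 sites with a read (36.0%), against 12.8% of the sites of all miRNAs. Of the 7 miR166 sites with at least 10 TP10M, 6 were in it, against 27.0% of such sites of all miRNAs. Leaving out its sites left 1 close-match site at Level 3 or 4 in place of 7, and counting sites of equal abundance and library as 1 left 4. At +2 nt, predicted for atr-miR166b, the 6 transcripts of the shared pattern held 8, 2, 2, 2, 1 and 0 TP10M.

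The share of predicted sites with a read is given here for each miR166 form. A site at the floor of 1 TP10M counted as having a read, and differences between the forms were not tested. In Brachypodium a read was found at 67.3% of the 55 sites of miR166h-3p, 61.4% of the 83 sites of miR166j and 52.9% of the 51 sites of miR166a-3p, which share their start, and at 49.1% of the 57 sites of miR166e-3p and 50.0% of the 60 sites of miR166f. miR166g-3p, the most shifted form, had 37.0% of 81 sites with a read, close to the 37.8% of all predicted Brachypodium sites. It had 1 site at Level 3 and a highest abundance of 10 TP10M. The forms h-3p, a-3p and j each had 8 sites at Level 3 or 4 and miR166f had 0. Many of these sites are common to the forms, so the shares are not independent. In switchgrass the share was 78.3% of 23 sites for lus-miR166b, 66.7% of 27 for ata-miR166d-3p and 56.5% of 46 for sly-miR166c-3p, and 38.6% of 44 for the shifted atr-miR166b. In sorghum, whose forms all start at the same base, the share ran from 40.0% to 53.6%, beside 24.9% of all sites predicted there. Over all predicted switchgrass sites it was 46.5%.

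The 5p arm was listed only in Brachypodium. It had more predicted sites than the guide arm, 589 against 337, and 43.5% of them had a read, against 50.4% of the 3p sites. The highest abundance of a 5p site was 21 TP10M, against 737 TP10M for the 3p arm. At least 10 TP10M were held by 7 of the 5p and 15 of the 3p sites, against 356 of the 25863 Brachypodium sites of all miRNAs. Of the 13 5p sites that scored 3 or lower, 6 had a read, none was at Level 3 or 4, and the highest held 5 TP10M. Of all Brachypodium sites scored 3 or lower, 3.01% stood at Level 3 or 4. The share with a read was 21.5 to 28.8% across their score ranges. The 3 most abundant 5p sites were Bradi1g54210.1 at position 2204 (miR166i-5p, 21 TP10M, 0.289% of the transcript), Bradi1g35105.1 at 434 (miR166g-5p, 18 TP10M, 26.5%) and Bradi3g55210.1 at 704 (miR166g-5p, 14 TP10M, 0.348%). Their scores were 4 or 5, and Bradi1g35105.1 was the only 5p site at Level 4.

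Sites at Level 4 outside the close matches were few and weakly scored. Besides Bradi1g35105.1 there were Bradi2g33900.1 at position 933 (miR166h-3p, expectation 5, 24 TP10M, 46.2% of the transcript) and, in sorghum, Sobic.009G066500.2 at position 946 (listed for miR166g, expectation 5, 28 TP10M, 59.6%, panicle replicate 1). The library named for both Brachypodium sites matched no sample of the series and is among the earlier tissue libraries. Such libraries were named for 62 of the 426 Brachypodium miR166 sites with a read and 8 of the 22 with at least 10 TP10M, and counting their sites as without a read gave 39.3% with a read in place of 46.0%. Sobic.003G041900.2 at position 270, chosen after its value was seen, held 54 TP10M with an expectation of 5, more than 4 of the 5 sorghum sites of the shared pattern, but 3.41% of its transcript and Level 2.

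RNA-seq gave the transcript level of the Brachypodium genes in each library, in TPM (a transcript share that takes gene length into account). Bradi3g28970 measured 71.6 and 79.7 TPM in the control libraries, 31.4 and 34.1 under drought, 93.5 and 102 in the cold, 60.2 and 75.0 under submergence and 97.1 and 72.2 under heat. Both drought libraries lay below and both cold libraries above every control. Bradi1g13910 measured 28.8 and 33.3 TPM in the control libraries, 21.5 and 32.9 under drought, 34.6 and 38.6 in the cold, 30.7 and 38.7 under submergence and 32.1 and 24.8 under heat, so that all groups but cold overlapped the controls. Bradi4g01887 measured 20.7 and 25.6 TPM in the control libraries, 12.3 and 12.4 under drought, 25.0 and 26.3 in the cold, 20.9 and 24.6 under submergence and 24.9 and 21.7 under heat. Its drought libraries lay below every other library. Bradi2g06210 was the lowest, with 1.62 and 1.86 TPM in the control libraries, 1.19 and 0.68 under drought, 1.81 and 1.88 in the cold, 2.47 and 4.83 under submergence and 1.90 and 1.29 under heat. Its drought libraries lay below and its submergence libraries above the controls.

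**Figure D3:**
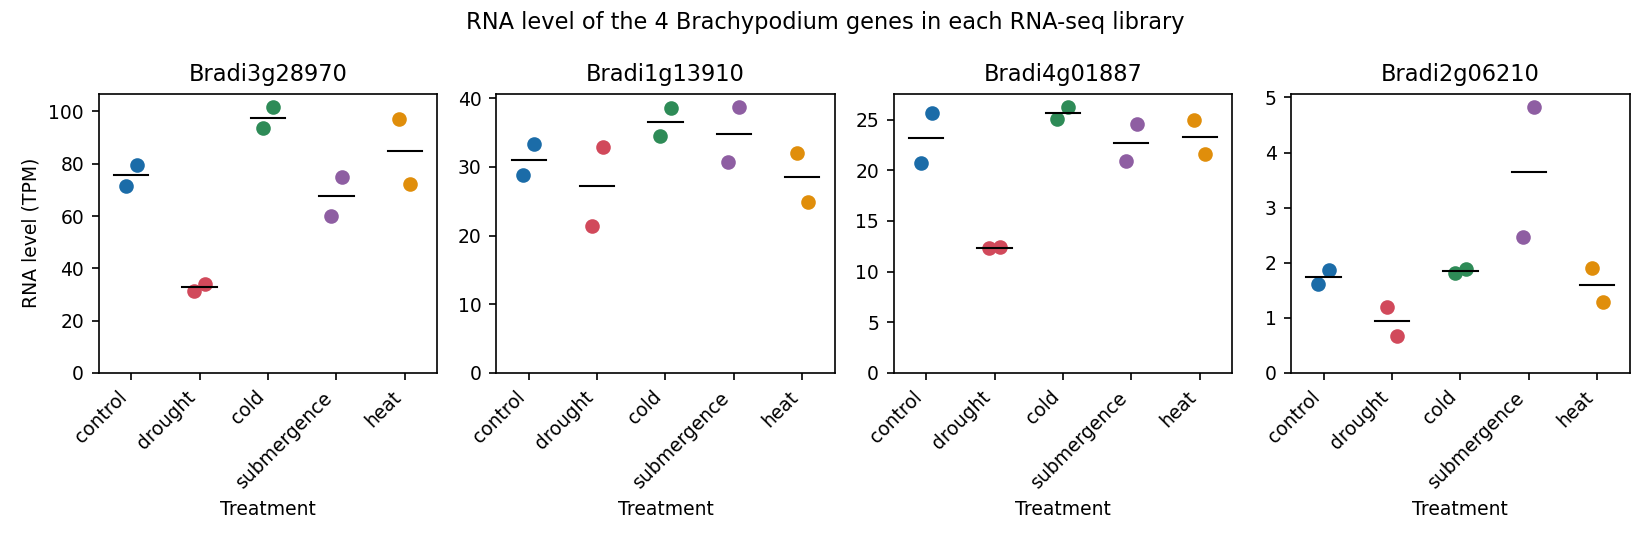
RNA level (TPM, vertical axes from 0 with a scale for each gene) of the 4 Brachypodium genes with the abundant miR166 sites in the 10 RNA-seq libraries by treatment, with 1 point per library and a bar at the mean of the 2. Bradi3g28970 and Bradi4g01887 are lowest in both drought libraries, and the submergence libraries of Bradi2g06210 lie apart, at 2.47 and 4.83 TPM.

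The order of the levels, Bradi3g28970, Bradi1g13910, Bradi4g01887 and Bradi2g06210 from high to low, was the same in 10 of 10 libraries. Over all libraries the mean was 71.7, 31.6, 21.4 and 1.95 TPM. PARE abundance did not span the same range: Bradi2g06210 held 365 TP10M at its site and Bradi3g28970 737 TP10M, both listed for control replicate 2 of the PARE libraries. Whether the reads at the site of Bradi2g06210 were also counted for other transcripts is unknown. In RNA of all parts above ground, fewer cells of a type and less RNA per cell cannot be told apart.

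Each stress was compared with control for all 23494 genes with enough counts, in 1 edgeR quasi-likelihood fit of the 10 libraries with Benjamini-Hochberg adjustment over all genes and a threshold of 0.05. Nothing says whether the replicates came from separate plantings, so the p-values measure the spread between these libraries. Under drought Bradi3g28970 fell by 0.95 on the log2 scale (standard error 0.16, adjusted p = 0.000614), lower in 2 of 2 libraries, and Bradi4g01887 fell by 0.69 (0.15, adjusted p = 0.00261), lower in 2 of 2. Bradi2g06210 stood at -0.69 (0.35, adjusted p = 0.112) and Bradi1g13910 at 0.03 (0.22, adjusted p = 0.909). Bradi2g06210 was called lower with upper quartile scaling (-0.94) and with library size alone (-0.97), which moved the median of all genes to -0.33 and -0.36, and it stood at -1.11 without drought replicate 1 and -0.34 without drought replicate 2, called in neither. Drought moved 64.9% of all genes tested, so a call under drought is the common outcome, and the median of all genes lay at -0.07.

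In the cold the fitted change of all 4 genes was above 0: Bradi3g28970 rose by 0.63 (standard error 0.16, adjusted p = 0.0200), and Bradi1g13910 stood at 0.50 (0.21, adjusted p = 0.130), Bradi4g01887 at 0.41 (0.15, adjusted p = 0.0763) and Bradi2g06210 at 0.34 (0.32, adjusted p = 0.498). Cold moved 21.8% of all genes. The call of Bradi3g28970 was lost when any 1 of the 4 cold and control libraries was left out (adjusted p = 0.0527 to 0.134), and it was not called with scaling by library size alone (0.36) or by upper quartile (0.46), which moved the median of all genes in the cold to -0.30 and -0.19. Under submergence none of the 4 passed, with Bradi2g06210 the highest at 0.81 (0.32, adjusted p = 0.0767) and Bradi3g28970 the lowest at -0.40 (0.16, adjusted p = 0.0869). The value of Bradi2g06210 turned on 1 library: it stood at 0.31 without submergence replicate 2 and at 1.18 without submergence replicate 1, where it was called (adjusted p = 0.0208). It was also called with library size alone (1.03), which moved the median of all genes to 0.20. Bradi4g01887 stood at -0.27 and Bradi1g13910 at -0.08. Submergence moved 31.5% and heat 16.9% of all genes. Under heat the 4 stood between -0.30 and 0.01, and none passed.

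**Figure D4:**
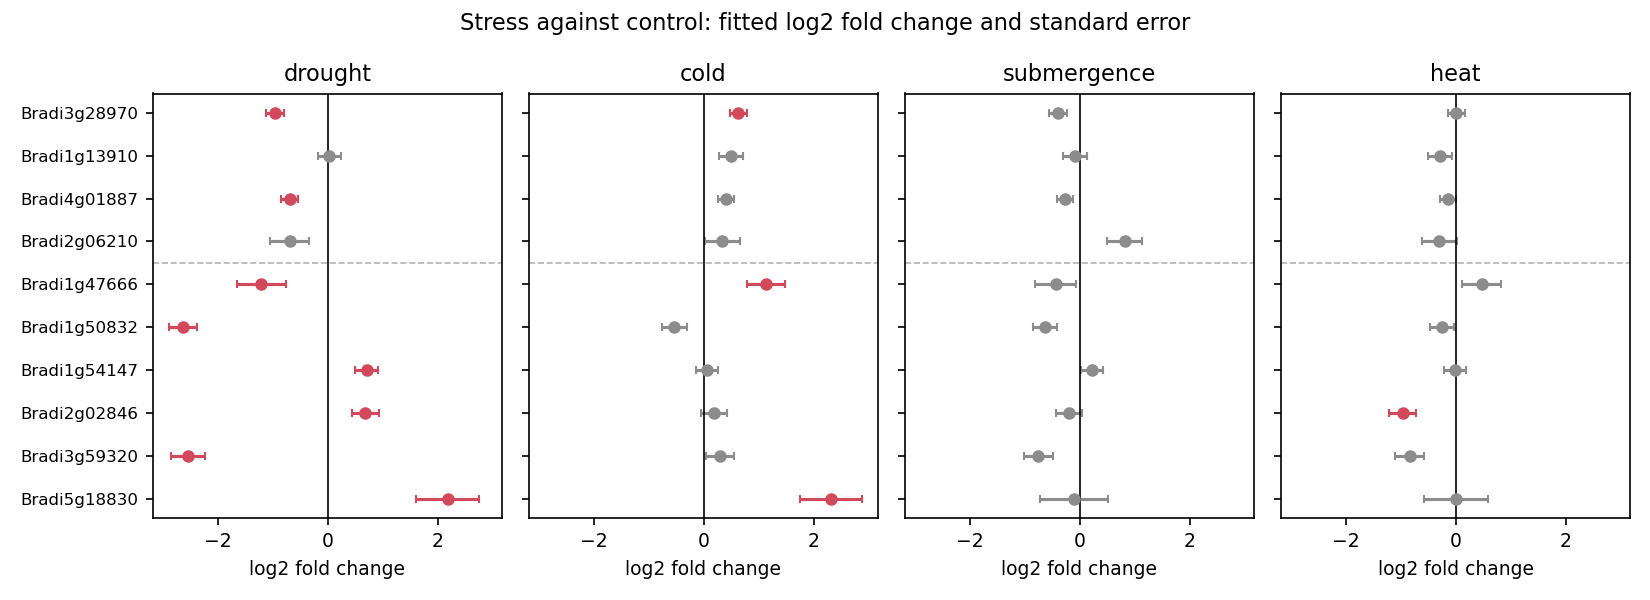
Fitted log2 fold change against control (horizontal) with its standard error for 10 Brachypodium genes with a close-match miR166 site under each stress, red where the adjusted p was under the threshold and grey otherwise. The 4 genes above the dashed line carry the abundant sites. Bradi3g51590 is not drawn because of its low counts. Under drought 8 of the 10 are red, 3 of them higher and 5 lower, and under submergence none is.

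Of the 14 Brachypodium genes with a close-match site, 11 had enough counts to be tested. Under drought 9 of the 11 were called, 4 higher and 5 lower, against 32.1% of all genes called higher and 32.8% called lower. Without control replicate 1 the count was 5. In the cold 3 were called, all higher, against 12.2% called higher and 9.63% called lower, and the count was 0 to 1 in the 4 fits that each left out a cold or control library. Under submergence 0 were called by edgeR, DESeq2 or limma, with 4 under 0.05 before adjustment in edgeR, against 14.9% of all genes called higher and 16.6% called lower. Under heat 1 was called, lower, against 8.21% called higher and 8.70% called lower, and 0 were called when any 1 heat or control library was left out.

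Among the 11 tested close-match genes, the largest drought falls were in genes whose sites had no read. Bradi1g50832 measured 51.9 and 40.2 TPM in the control and 6.24 and 5.48 TPM in the drought libraries, and fell by 2.63 on the log2 scale (standard error 0.25, adjusted p = 1.63e-05). Bradi3g59320 measured 17.0 and 16.4 TPM in the control and 3.24 and 1.72 TPM in the drought libraries, and fell by 2.54 (0.31, adjusted p = 6.38e-05). Neither group of drought libraries overlapped the controls, and both calls held when any 1 library was left out. Bradi5g18830 measured 1.30 and 1.91 TPM in the control, 6.15 and 6.45 TPM in the drought and 2.97 and 10.5 TPM in the cold libraries. It rose by 2.18 under drought (0.57, adjusted p = 0.00736) and by 2.31 in the cold (0.56, adjusted p = 0.0170), with cold libraries far apart. The cold call was lost in 3 of 4 and the drought call in 1 of 4 fits that left out a library.

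Bradi1g54147 rose by 0.71 under drought (standard error 0.20, adjusted p = 0.0113), from 25.4 and 23.8 to 32.2 and 36.2 TPM, and the call was lost in 2 of 4 fits that left out a library, with upper quartile scaling (0.45) and with library size alone (0.42). Bradi2g02846 rose by 0.69 under drought (0.24, adjusted p = 0.0279) and fell by 0.96 under heat (0.25, adjusted p = 0.0270), where it measured 4.13 and 4.29 TPM against 7.80 and 7.12 TPM in the control. Its drought call was lost in 3 of 4 and its heat call in 4 of 4 fits that left out a library, both were lost in DESeq2 (0.78 and -0.98), and the drought call was also lost with upper quartile scaling (0.43) and library size alone (0.40). Bradi1g47666, with a site that scored 1.5 and held 1 TP10M, measured 1.97 and 1.90 TPM in the control, 0.97 and 0.49 under drought and 3.31 and 3.76 in the cold. It was called lower under drought (-1.20, 0.44, adjusted p = 0.0356) and higher in the cold (1.13, 0.35, adjusted p = 0.0448), and these calls were lost in 3 of 4 and 4 of 4 fits that left out a library. Both were also lost in DESeq2 (-1.12 and 1.13), the drought call with RLE scaling (-1.11), and the cold call with upper quartile scaling (0.96) and library size alone (0.85). Bradi3g51590, with 0 and 5 counts in the control and 8 and 26 counts in the drought libraries, was also called higher under drought (adjusted p = 0.0105), which was lost in 2 of 4 such fits. Its counts were too low to give a fold.

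The 3 genes left out of the test were those of the perfect match, Bradi1g74127 (0 to 0.35 TPM), of Bradi3g15175 (0 to 0.12 TPM) and of Bradi1g01640 (0.07 to 0.90 TPM). Bradi1g74127 and Bradi3g15175, with sites scored 0 and 1.5, were thus near the floor of the RNA-seq as well as of the PARE data.

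The stresses were also compared with each other in the same fit. The 6 pairs share stress libraries, and p-values were adjusted over all genes within a pair. Of the 11 genes, 8 differed between drought and cold (56.1% of all genes), 8 between drought and submergence (58.5%), 9 between drought and heat (67.6%), 5 between cold and submergence (41.3%), 6 between cold and heat (42.2%) and 2 between submergence and heat (39.1%). Bradi3g28970 was lower under drought than in the cold (log2 difference -1.58, standard error 0.16, adjusted p = 3.89e-05), as was Bradi4g01887 (-1.10, 0.15, adjusted p = 0.000214). Both were also higher in the cold than under submergence and heat. Bradi1g13910 differed in 1 pair, cold above heat by 0.78 (0.21, adjusted p = 0.0156), and its difference between drought and cold stood at -0.47 (0.22, adjusted p = 0.0897).

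Over all genes with a miR166 site at any score, the calls were near the background. All 839 such genes were in the RNA-seq tables and 684 were tested. Under drought 461 were called (67.4%), in the cold 136 (19.9%), under submergence 220 (32.2%) and under heat 115 (16.8%). Their median log2 fold change was -0.06 under drought, 0.01 in the cold, 0.03 under submergence and 0.00 under heat, beside -0.07, -0.02, 0.00 and 0.01 over all genes tested.

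The largest called changes among them, at a mean of at least 10 CPM (counts scaled to a common library total), were in genes with weakly scored sites of at most 1 TP10M. Most Brachypodium miR166 sites were of this kind. Of the 926, 73 held 2 TP10M or more, 205 scored above 3 and up to 4, and 686 scored above 4. Under drought Bradi1g66920 (guide-arm site, score 5) rose from 4.21 and 5.19 TPM to 611 and 549 TPM, by 7.16 on the log2 scale (standard error 0.55, adjusted p = 4.34e-06), and Bradi2g05927 (score 4) fell from 24.3 and 28.8 TPM to 0.37 and 0.46 TPM (log2 change -5.79, standard error 0.40, adjusted p = 2.45e-06). In the cold Bradi5g18420 (5p site, score 4.5) rose from 1.36 and 1.21 TPM to 82.5 and 86.5 TPM, by 6.30 (0.24, adjusted p = 7.4e-07), and Bradi2g02647 (5p site, score 5) fell from 48.6 and 58.3 TPM to 7.69 and 14.9 TPM (log2 change -1.98, standard error 0.26, adjusted p = 0.000621). These 4 drought and cold calls held when any 1 library was left out. Under submergence Bradi3g13700 (5p site, score 4.5) rose from 2.53 and 0.70 TPM to 29.3 and 20.0 TPM, by 3.74 (0.68, adjusted p = 0.00349), and Bradi2g37327 (5p site, score 5) fell from 102 and 107 TPM to 13.6 and 36.7 TPM (log2 change -2.30, standard error 0.33, adjusted p = 0.00115). Under heat Bradi1g18170 (5p site, score 4) rose from 9.47 and 9.44 TPM to 31.9 and 21.9 TPM, by 1.35 (0.24, adjusted p = 0.00660), and Bradi4g36120 (5p site, score 5) fell from 13.1 and 21.8 TPM to 3.14 and 4.13 TPM (log2 change -2.46, standard error 0.52, adjusted p = 0.0133). The heat calls of Bradi1g18170 and Bradi4g36120 were lost in 2 and 3 of 4 fits that left out a library.

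AGO1a (Bradi3g51077), which the study names and which encodes an ARGONAUTE, the protein that carries out miRNA-guided cleavage, measured 5.83 and 5.69 TPM in the control and 2.01 and 1.74 TPM in the drought libraries. It fell by 1.43 on the log2 scale under drought (standard error 0.18, adjusted p = 8.17e-05) and was called under no other stress, where its libraries measured 5.53 to 9.07 TPM.

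RNA level and PARE Level were set side by side over the 839 genes. The 448 genes whose miR166 sites had no read had a median level of 2.03 TPM over the 10 libraries, and 58.3% of them reached 1 TPM. The 359 genes at Level 1 had a median of 22.1 TPM and the 16 genes at Level 2 of 29.9 TPM. The 16 genes at Level 3 or 4 had a median of 2.07 TPM with quartiles of 0.716 and 21.0 TPM, and 11 of them reached 1 TPM. The Levels use rank and share within a transcript, so a transcript with few reads can reach Level 3 on 1 TP10M.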

How the data were processed

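Members and gene lists were chosen with earlier results of these data known. PARE reads were aligned with Bowtie 0.12.7 (perfect matches only) and RNA-seq reads with STAR 2.5.3a and RSEM 1.2.31, per the submitters' processing notes in the labels. The genomes were DOE-JGI releases of the 3 species. The deposited PARE tables give scores (expectation up to 5, TargetFinder up to 4), an abundance score in whole TP10M, the rank score, and the share of a transcript's abundance as a fraction, printed here as a percent, all made by the authors. The deposited share criterion passed at 20%, although the methods state 10%, and with 20% the Level of every site was recovered. Each site was counted once over the miRNAs listed for it. The depth of each PARE library was not used. Of 14 library names in the Brachypodium table, 4 matched no sample, and the 4 tissue libraries of the series were named for no site. The Library column gives 1 library per site.

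The deposited RNA-seq tables hold expected counts and TPM, which the authors computed with RSEM. Expected counts were rounded (13.3 to 15.6% of values were not whole). Total counts per library were 9885357 to 17978729. Genes passing filterByExpr entered edgeR 4.0.16 (TMM, glmQLFit, no covariate) in R 4.3.3, and reads of near-identical genes may have been split between them by RSEM. DESeq2 1.42.0, limma 3.58.1 on log2(TPM + 1) or log2(TPM + 0.1), other scalings, left-out libraries and a replicate block were alternatives. The standard errors printed with the edgeR changes were derived, as the absolute log2 change divided by the square root of the test's F statistic. The code was tested on simulated data. Named were every gene or site with a guide-arm score of 3 or lower, other Level 4 sites, the 3 most abundant 5p sites, the largest rise and fall per stress at 10 CPM or more, and AGO1a. Lists of pathway and tissue marker genes could not be matched, since none of the 31335 genes of the RefSeq table (Brachypodium_distachyon_v3.0) carried the identifiers used, and the tissue was not checked by markers. Python 3.11.15 and scipy 1.17.1 gave counts and Wilson intervals.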

Additional observations from a re-analysis of the deposited data

Results flagged for a closer look

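Every pair of stresses was compared for each gene with an abundant site. Over all genes tested, 39.1% (submergence against heat) to 67.6% (drought against heat) differed between 2 stresses, so a difference is a common outcome. By the contrast between 2 stresses in the edgeR fit, their effects on a gene with an abundant site differed in 14 cases. These are given as log2 differences. For Bradi3g28970 they were -1.58 (drought minus cold), -0.55 (drought minus submergence), -0.96 (drought minus heat), 1.03 (cold minus submergence) and 0.62 (cold minus heat). For Bradi4g01887 the same 5 differences were -1.10, -0.42, -0.54, 0.68 and 0.56. For Bradi2g06210 they were -1.03 (drought minus cold), -1.50 (drought minus submergence) and 1.11 (submergence minus heat), and for Bradi1g13910 0.78 (cold minus heat). No gene or library group was large enough for a test of outlying samples.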

How the results depend on the processing

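The 1 TP10M floor set the share of sites with a read. At 2 TP10M or more it was 7.88% for Brachypodium, 9.28% for sorghum and 10.9% for switchgrass. Over all miRNAs, 1661 of 25863, 300 of 7435 and 268 of 3169 sites held as much. With sites named for libraries outside the series counted as without a read, the Brachypodium miR166 share was 39.3%. Counting each pair of miRNA and site gave 37, 13 and 21 at Level 3 or 4. Of the close-match sites at Level 3 or 4, 6 remained in Brachypodium at 2 TP10M or more. In sorghum 1 remained without the sites named for root replicate 2. In switchgrass 1 remained without those named for stem replicate 1, and 4 with equal values of a library counted as 1. Leaving out the sites of a library, merging equal values and the minimum of 2 TP10M for close-match sites were chosen after seeing the data.

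For the close-match genes called, a fold change of at least 2 gave 5 under drought and 0 under heat, and a score limit of 2.5 (5 genes tested) gave 3 and 0. A limit of 3.5 (17 genes tested) gave 3 under submergence and 3 under heat. limma on log2(TPM + 0.1) gave 1 in the cold. Under submergence library size alone and no filter on low counts gave 1 each, and fitting only stress and control libraries gave 2. Under heat no filter and that fit gave 2 each. Leaving out 1 library gave 5 to 8 under drought, 0 to 1 in the cold, 0 to 2 under submergence (2 without submergence replicate 1) and 0 to 0 under heat. The count of calls between stresses stayed within 1.5 times of 38 in each alternative that was run.

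Equal replicate numbers did not pair the libraries (r of their deviations -0.17 to 0.14 over 10 pairs of groups), and the replicate block gave 9 calls under drought, 3 in the cold, 1 under submergence and 2 under heat.

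Of 350 alternative values for single genes, 289 kept direction and side of the threshold, 44 lost and 4 gained a call (all of Bradi2g06210), and 13 reversed, all in 4 values that were not called. Under drought Bradi1g13910 stood at -0.23 with upper quartile scaling, -0.26 with library size alone and -0.33 to 0.33 with a library left out. Under submergence it stood at 0.12 with library size alone and -0.21 to 0.048 with a library left out. Under heat Bradi3g28970 stood at -0.0020 with DESeq2, -0.0018 with RLE scaling and -0.15 to 0.16 with a library left out, and Bradi4g01887 at 0.012 with library size alone and -0.30 to 0.037 with a library left out. Library size alone moved the median of all genes to -0.36, -0.30, 0.20 and 0.17 under drought, cold, submergence and heat, and upper quartile scaling to -0.33 and -0.19 under drought and cold. The cause of each change was not tested. With 2 libraries a group, modest changes can be missed.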
